A study of Homo sapiens with 8 samples.

Results

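The Krüppel-like factors (KLFs) KLF2, KLF4, KLF5, KLF6, KLF7, KLF9, KLF10, KLF11 and KLF13 were followed in SK-MEL-5 cells, a long-established line from a human melanoma. They are 9 of the 18244 genes with at least 1 probe set annotated to a single gene symbol, and every one of their 27 such probe sets is accounted for below. The family was picked because KLF2, KLF9 and KLF10 had already been seen to move in different directions in these comparisons. Their values under THZ1 and under the MITF siRNA are therefore a description and carry no test. All 9 genes passed the filter on low signal through their brightest probe set, and 22 of the 27 probe sets lay at or above its minimum signal of 39.2.

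KLFs are zinc finger transcription factors that bind GC-rich and CACCC sequences in promoters and enhancers, and they share this DNA-binding domain with the SP family. KLF2, KLF4, KLF5, KLF6 and KLF7 act mainly as activators, often through acetyltransferases. KLF9, KLF10, KLF11 and KLF13 can recruit the corepressor SIN3A. Many KLF transcripts are short-lived and respond quickly to serum, stress, hormones or TGF-beta.

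The data are mRNA signals from 8 Affymetrix arrays in 4 groups of 2, all from SK-MEL-5 cells. The DMSO group received the solvent at 25 µM, as the labels state it, and the THZ1 group received 250 nM THZ1, a covalent inhibitor of the transcriptional kinase CDK7, in the same solvent for 6 h. The siCtrl group was transfected with a non-targeting siRNA and the siMITF group with an siRNA against MITF, the master transcription factor of the melanocyte lineage. The series' title frames the question as how CDK7 inhibition acts on melanoma and its lineage genes, and each treatment was compared with its own control. Neither the time of harvest after transfection nor the use of separate cultures within a group is given in the labels. P-values therefore measure only the spread between arrays, which may be technical, and the whole study rests on 1 cell line and 1 dose.

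Signals were deposited as normalized to cell number, and most genes were lower on this deposited scale under both treatments. The median change over the 11946 tested genes was -0.16 (log2) with THZ1 and -0.63 with siMITF. How that normalization was calculated is not given. Fewer cells, less RNA per cell and scaling therefore cannot be told apart as sources of this shift. Changes are therefore also given on a relative scale, in which the shift shared by most genes of an array is subtracted (the median, over tested genes, of their deviation from their own mean). All log2 values are of signal plus 16, which understates the change of dim probe sets. Array medians ran from 32.5 to 76.1, arrays of a group correlated at r = 0.994 to 0.995, and the siMITF arrays were the dimmest. MITF itself had signals of 3436 and 3936 with siCtrl and 1747 and 1168 with siMITF. It fell by 1.35 on the deposited scale (limma adjusted p = 1.62e-06) and by 0.72 on the relative scale (adjusted p = 0.000325). Of 6 melanocyte lineage markers 5 were tested, with a summed signal of 32300 to 34600 with DMSO, 27800 to 33900 with THZ1, 21200 to 24100 with siCtrl and 12400 to 15700 with siMITF. The keratinocyte markers KRT5, KRT14 and KRT1 and the fibroblast markers COL1A1 and COL1A2 lay below the minimum signal. So did the leukocyte markers PTPRC, CD3E, CD14 and LYZ and the endothelial markers PECAM1, CDH5 and TEK. The tested markers of these lists were KRT10 (keratinocyte), DCN, LUM and PDGFRA (fibroblast), CD68 (leukocyte), and VWF and KDR (endothelial). LUM was the brightest of them, at 2070 and 2480 with DMSO, 2320 and 2980 with THZ1, 1350 and 1640 with siCtrl, and 810 and 613 with siMITF. Over all arrays, the 4 keratinocyte markers with a probe set (1 of them tested) summed to 317 to 889, the 5 leukocyte markers (1 tested) to 139 to 283 and the 5 endothelial markers (2 tested) to 151 to 335. The 5 fibroblast markers (3 tested) summed to 2350 to 2820 with DMSO, 2640 to 3420 with THZ1, 1530 to 1860 with siCtrl and 730 to 961 with siMITF, and their part in the results was not tested.

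Promoter sequence was available from RefSeq (GRCh38.p14) for 8 of the 9 members, at 13 annotated starts, and is shown because MITF binds the E-box CACGTG and MITF was knocked down in 1 group of arrays. The letters CACGTG, which read the same on both strands, occurred in the 250 bases before 4 of these starts, against 6.34% of 35116 starts of all genes. The other E-box form, CATGTG, searched on both strands, was at 0 of the 13 starts and at 9.42% of all starts. The GC box GGGCGG, a sequence KLF and SP factors can bind, was at 8 of the 13 starts on either strand and at 42.6% of all starts. The sequences of KLF6, which had the most negative change with siMITF among the 9, and of KLF9, which was higher with siMITF, are shown in full below, 5′ to 3′ on the gene's own strand, with the last base next to the start and CACGTG in capitals. KLF6 is read at chr10:3785210-3785459 on the minus strand, where CACGTG begins 97 bases before the start. KLF9 is read at chr9:70414658-70414907 on the minus strand and holds none of the 3 motifs.
KLF6: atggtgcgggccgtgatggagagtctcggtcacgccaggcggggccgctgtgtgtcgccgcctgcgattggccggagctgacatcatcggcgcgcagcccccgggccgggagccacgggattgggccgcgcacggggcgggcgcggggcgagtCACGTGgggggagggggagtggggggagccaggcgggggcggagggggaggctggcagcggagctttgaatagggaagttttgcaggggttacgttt
KLF9: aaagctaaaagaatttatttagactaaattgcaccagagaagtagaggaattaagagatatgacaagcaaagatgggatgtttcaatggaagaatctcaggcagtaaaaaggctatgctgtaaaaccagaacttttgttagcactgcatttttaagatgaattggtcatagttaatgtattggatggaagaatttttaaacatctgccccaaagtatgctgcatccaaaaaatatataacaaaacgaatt

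The KLF6 and KLF9 windows also differ in composition, with 72.4% and 32.4% G and C. The other starts with CACGTG belong to KLF4, KLF7 (1 of 4 starts) and KLF11 (1 of 2 starts), and the motif begins 157, 186 and 182 bases before them. They are shown with the bases on either side, at chr9:107489891-107489956 (minus strand) for KLF4, chr2:207134288-207134353 (minus strand) for KLF7 and chr2:10043617-10043682 (plus strand) for KLF11.
KLF4: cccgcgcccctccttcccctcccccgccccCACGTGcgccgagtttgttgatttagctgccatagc
KLF7: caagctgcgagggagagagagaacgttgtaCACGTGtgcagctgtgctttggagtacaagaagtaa
KLF11: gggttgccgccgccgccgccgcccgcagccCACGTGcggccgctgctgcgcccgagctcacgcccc

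On the relative scale these 4 genes did not share a direction with siMITF: KLF6 and KLF11 were lower, KLF4 was higher, and KLF7 was slightly higher. As deposited all 4 had negative changes, -1.30 for KLF6, -1.10 for KLF11, -0.49 for KLF7 and -0.13 for KLF4, whose groups overlapped. The median of all tested genes on that scale was -0.63. A link between the motif and these changes was not tested. A match gives letters only, and binding was not measured on these arrays.

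KLF9, a factor induced by glucocorticoids and thyroid hormone and known for its part in differentiation and oxidative stress, gave opposite values in the 2 comparisons. Its brightest probe set read 630.3 and 720.3 with DMSO, 247.9 and 317.2 with THZ1, 258.4 and 319.7 with siCtrl, and 663.9 and 536.9 with siMITF. Both THZ1 arrays lay below both DMSO arrays, and both siMITF arrays lay above both siCtrl arrays. The change with THZ1 was -1.22 (SE 0.25, 2.33-fold lower) on the deposited scale and -1.02 (SE 0.07) on the relative scale. With siMITF it was 1.01 (SE 0.25, 2.02-fold higher) on the deposited scale and 1.65 (SE 0.07, 3.13-fold) on the relative scale.

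Centred, KLF9 lay higher with siMITF than 11936 of the 11946 tested genes, and with THZ1 only 173 genes lay lower. The difference between its changes, THZ1 minus siMITF, was -2.67 (SE 0.10), and 0 of the 11946 genes had a lower one. On the deposited scale that difference was -2.23 (SE 0.35). These ranks describe a gene that was picked for this pattern.

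The control arrays for KLF9 also stood apart. The siCtrl arrays, at 258.4 and 319.7, overlapped with the THZ1 arrays and lay below both DMSO arrays, a change from DMSO of -0.88 (SE 0.07) on the relative scale, and only 134 genes were lower. The siMITF arrays overlapped with the DMSO arrays as deposited. Centred, the mean log2 levels ran in the order 8.05 with THZ1, 8.18 with siCtrl, 9.07 with DMSO and 9.83 with siMITF. The drug and siRNA arrays look scaled apart by their ERCC spike-in signals. Over the 50 ERCC probe sets at or above the minimum signal, the median was 511 to 534 on the drug arrays and 253 to 266 on the siRNA arrays. Over all 100 it was 48 to 53.9 and 27.6 to 30.7. The part of transfection, harvest time and scaling in the gap between the 2 controls cannot be told apart.

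The remaining 3 KLF9 probe sets had the signs of the brightest one on the relative scale, negative with THZ1 and positive with siMITF. The second, with signals from 142 to 389, changed by -0.64 with THZ1 and 1.58 with siMITF, and its groups did not overlap in either. Another changed by -0.14 and 1.16, with DMSO at 54.7 and 98.2 and THZ1 at 51.0 and 59.2, so that these groups overlapped. The one below the minimum signal changed by -0.06 and 0.66, and its THZ1 arrays overlapped with DMSO on the relative scale. As deposited its siMITF arrays overlapped with siCtrl (0.03).

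KLF10, also called TGF-beta-inducible early gene 1, is an immediate response gene and a repressor that can recruit SIN3A. By brightest probe set, KLF10 was the only one of the 9 that was higher with THZ1. On the relative scale a second probe set of KLF2 (0.23), KLF4 (0.25) and KLF11 (0.20) also lay above DMSO without overlap. The KLF10 signals were 444.7 and 582.1 with DMSO, 736 and 1085 with THZ1, 320 and 400.4 with siCtrl, and 196.4 and 152.2 with siMITF. The THZ1 arrays were the highest of all 8, the siMITF arrays the lowest, and no group overlapped with its control.

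With THZ1 the change in KLF10 was 0.79 (SE 0.25, 1.73-fold) as deposited and 0.99 (SE 0.08, 1.99-fold) on the relative scale, higher than 11940 of the 11946 tested genes. With siMITF it was -0.98 (SE 0.25) as deposited and -0.35 (SE 0.08) on the relative scale, where 1758 genes were lower. Probe sets as bright as these, with a mean signal over 400, had a median relative change of 0.17 with THZ1 and -0.25 with siMITF, and as deposited a median of -0.86 with siMITF. Quantile normalization gives all arrays the same distribution and so takes out the shift between them. After it the siMITF change of KLF10 was -0.15, and -0.16 when the arrays were also centred. Neither is a value on the deposited scale. The second KLF10 probe set, at 366 and 488 with DMSO and 695 and 935 with THZ1, gave 1.11 with THZ1 and -0.39 with siMITF on the relative scale. The names of both KLF10 probe sets end in _s_at, a design that can detect related transcripts.

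KLF2, an activator known for quiescence in T cells and for flow responses in endothelium, was lower under both treatments by its brightest probe set. The signals were 262.3 and 325.2 with DMSO, 121.9 and 178.5 with THZ1, 170.7 and 219 with siCtrl, and 94.07 and 85.3 with siMITF. Neither treated group overlapped with its control. The change with THZ1 was -0.91 (SE 0.25) as deposited and -0.71 (SE 0.08, 1.64-fold lower) on the relative scale, with 558 of the tested genes lower. With siMITF it was -0.99 as deposited and -0.36 (SE 0.08) on the relative scale.

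The second KLF2 probe set was not lower with THZ1. It read 177 and 185 with DMSO, 149 and 229 with THZ1, 122 and 176 with siCtrl, and 75.7 and 77.3 with siMITF. As deposited the THZ1 arrays lay on either side of the DMSO arrays, a change of 0.03. On the relative scale they lay above both DMSO arrays, a change of 0.23. With siMITF it changed by -0.81 as deposited and by -0.18 on the relative scale, where its groups overlapped. The name of the brightest KLF2 probe set ends in _s_at, a design that can detect related transcripts. The same holds for both KLF10 probe sets and the brightest of KLF11. Which of the probe sets follows KLF2 was not tested. The direction of KLF2 with THZ1 therefore depends on the probe set.

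**Figure D1:**
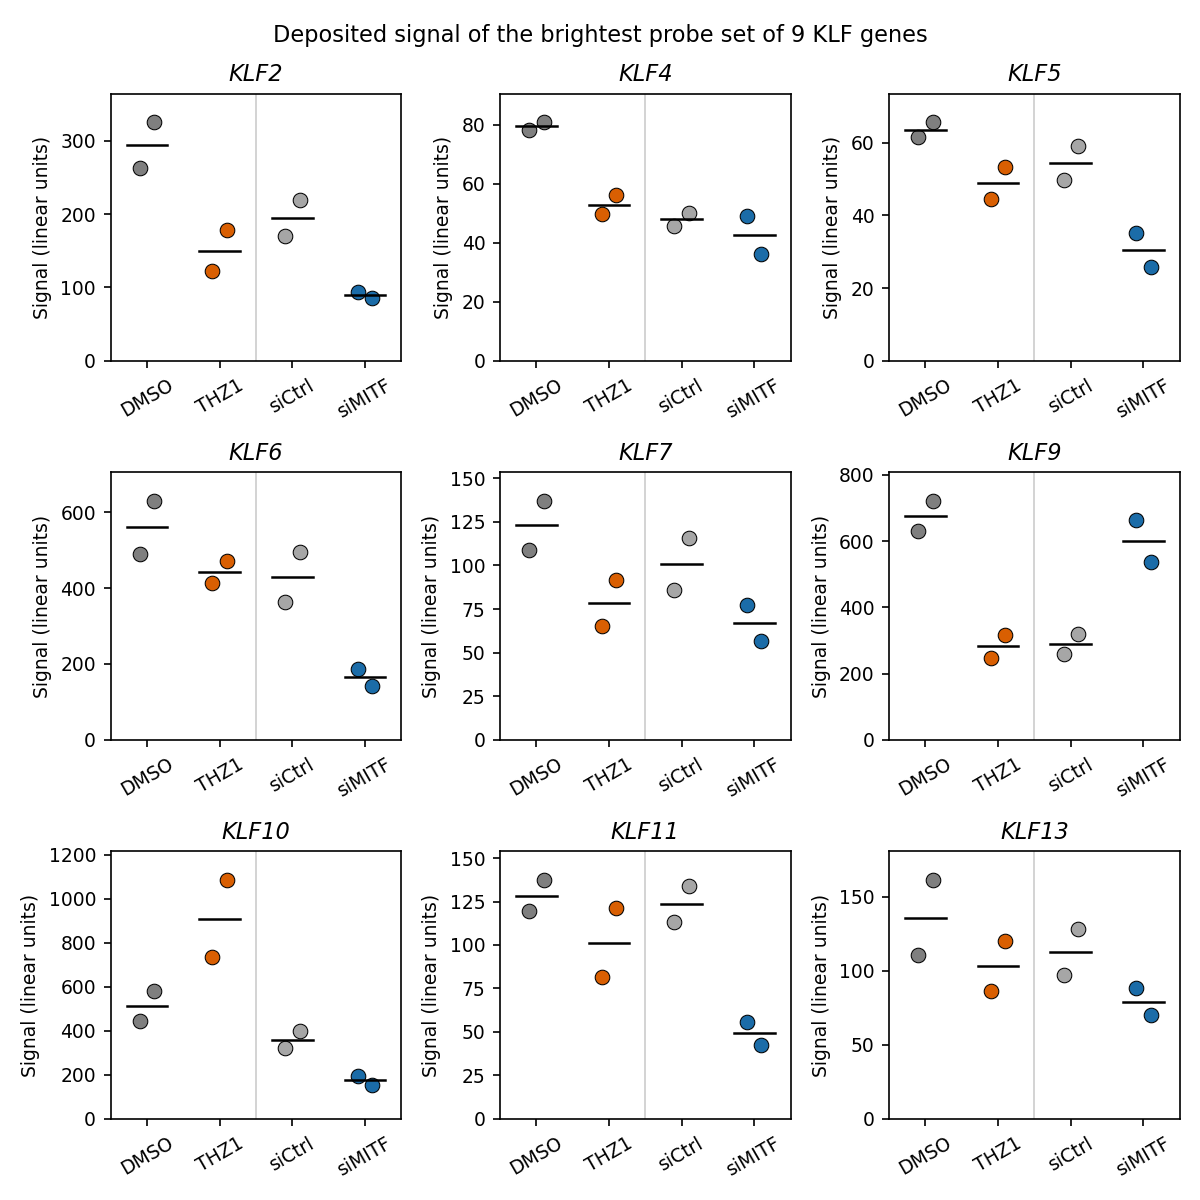
Deposited array signal (linear, vertical axes from 0) of the brightest probe set of each of the 9 KLF genes, with 1 point per array and a bar at the mean of the 2 arrays of each group. KLF9 is low with THZ1 and siCtrl and high with DMSO and siMITF, and KLF10 is highest with THZ1, at 736 and 1085.

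Among the other activators, KLF6 had the most negative change with siMITF. It is a ubiquitous factor that is induced by injury and has been described as a growth suppressor. Its signals were 490.2 and 629 with DMSO, 412.9 and 470.4 with THZ1, 363.8 and 495.1 with siCtrl, and 186.8 and 142.5 with siMITF. With siMITF the groups lay far apart, a change of -1.30 (SE 0.25, 2.46-fold lower) as deposited and -0.66 (SE 0.09, 1.59-fold) on the relative scale, where 363 genes were lower. With THZ1 the change was -0.32 as deposited and -0.12 (SE 0.09) on the relative scale, where the groups overlapped.

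Of the other 4 KLF6 probe sets, both bright ones were also lower with siMITF on the relative scale, with changes of -0.38 and -0.70, and near 0 with THZ1 (0.06 and -0.01). The dim pair, with mean signals of 42.2 and 34.6, gave 0.42 and 0.28 with siMITF. Probe sets under the minimum signal had a median relative change of 0.46 with siMITF and those between 39.2 and 60 one of 0.21, so dim probe sets as a class lay higher on this scale. Those from 200 to 400, where the brightest KLF6 probe set lay, had one of -0.21.

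KLF4, one of the reprogramming factors and an epithelial differentiation factor, was dim. Its signals were 78.15 and 80.93 with DMSO, 49.9 and 56.11 with THZ1, 45.74 and 50.12 with siCtrl, and 49.12 and 36.2 with siMITF. The DMSO arrays stood above all other arrays, and the siMITF arrays overlapped with siCtrl as deposited. The relative change was -0.27 (SE 0.11) with THZ1 and 0.50 (SE 0.11) with siMITF, and the second KLF4 probe set gave 0.25 and 0.19. The signs thus differed between the probe sets with THZ1 and were alike with siMITF.

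KLF5, a factor of proliferating epithelium, had the smallest relative changes of the 9. Its brightest probe set read 61.64 and 65.69 with DMSO, 44.53 and 53.36 with THZ1, 49.73 and 59.21 with siCtrl, and 35.1 and 25.72 with siMITF. Both treated groups lay below their controls as deposited (-0.30 and -0.61), and on the relative scale both overlapped with them (-0.10 and 0.03, SE 0.10). The other 2 KLF5 probe sets were below the minimum signal and gave 0.35 and -0.16 with THZ1 and 0.25 and 0.33 with siMITF.

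KLF7, a factor of neuronal outgrowth, had negative changes with THZ1 in all 4 probe sets. The brightest read 109 and 136.9 with DMSO, 65.36 and 91.74 with THZ1, 85.89 and 115.8 with siCtrl, and 77.39 and 56.93 with siMITF. Both treated groups lay below their controls as deposited. The relative change was -0.36 (SE 0.07) with THZ1 and 0.14 (SE 0.07) with siMITF. The other KLF7 probe sets gave -0.38, -0.17 and -0.09 with THZ1 and 0.28, 0.25 and 0.13 with siMITF, at mean signals of 39.4 to 46.8 where the median probe set gave 0.21 with siMITF.

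Of the SIN3A-binding group, KLF11 was nearest to KLF10 in the siMITF comparison. KLF11, also named TGF-beta-inducible early gene 2 and linked to insulin secretion, read 119.4 and 137.3 with DMSO, 81.45 and 121 with THZ1, 113.1 and 134.2 with siCtrl, and 55.94 and 42.43 with siMITF. The THZ1 arrays overlapped with DMSO as deposited, and both siMITF arrays were lower than any other array. The change with siMITF was -1.10 (SE 0.25, 2.15-fold lower) as deposited and -0.47 (SE 0.07) on the relative scale. With THZ1 it was -0.32 and -0.12 (SE 0.07). A second KLF11 probe set gave 0.20 with THZ1 and -0.11 with siMITF on the relative scale, and the third, at a mean signal of 11.2, gave 0.26 and 0.35.

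KLF13, a regulator of the chemokine RANTES in T cells, changed little. It read 110.3 and 161.1 with DMSO, 86.38 and 120 with THZ1, 97.16 and 128 with siCtrl, and 88.54 and 69.84 with siMITF. The relative change was -0.14 (SE 0.08) with THZ1 and 0.20 (SE 0.08) with siMITF. Its second probe set gave 0.00 and 0.19.

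**Figure D2:**
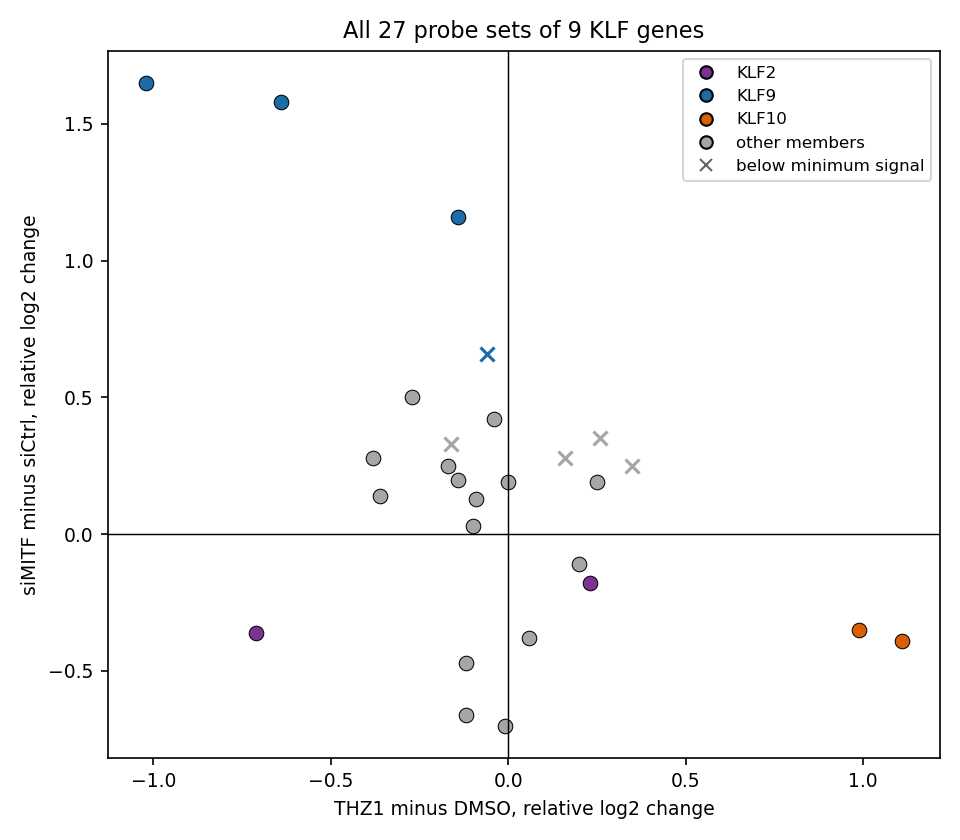
Relative log2 change of every probe set of the 9 genes, 27 in all, with THZ1 against DMSO on the horizontal axis and with siMITF against siCtrl on the vertical axis; circles lie at or above the minimum signal of 39.2 and crosses below it, and KLF2, KLF9 and KLF10 are coloured. The KLF9 probe sets lie in the upper left and both KLF10 probe sets at the lower right, at 0.99 and 1.11 with THZ1, while the 2 KLF2 probe sets lie on either side of 0 with THZ1.

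Over all 27 probe sets, 17 had a negative and 9 a positive relative change with THZ1, with 8 whose groups did not overlap below DMSO, 7 above it and 12 that overlapped. With siMITF 9 were negative and 18 positive, and 17 lay above siCtrl without overlap, 7 below and 3 overlapped. Of the 22 at or above the minimum signal, 15 were negative with THZ1 and 13 were positive with siMITF. Shares over all probe sets were not counted. By gene, 32% of all tested genes lay below DMSO without overlap and 38% above it, and 38% lay below siCtrl and 35.3% above it. Probe sets under the minimum signal had a median relative change of 0.46 with siMITF. Nothing is read from these probe set counts.

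Counted by gene on the deposited scale, 2 of the 9 (KLF2 and KLF9) passed the limma threshold as lower with THZ1, where 10% of all tested genes did, and 1 (KLF10) as higher, where 0.0753% did. Groups that did not overlap were found for 6 of the 9 below DMSO, against 30% of all tested genes, and for 1 above, against 0.871%. With siMITF, 5 passed as lower (KLF2, KLF5, KLF6, KLF10 and KLF11) and 1 as higher (KLF9), against 63.4% and 0.326% of all genes. Without overlap, 7 lay below siCtrl and 1 above, against 89% and 0.929%. On the relative scale 3 were lower (KLF2, KLF7 and KLF9) and 1 higher with THZ1, against 21.1% and 17.7% of all genes. With siMITF 4 were lower (KLF2, KLF6, KLF10 and KLF11) and 2 higher (KLF4 and KLF9), against 24.7% and 19.5%. Relative levels did not overlap for 6 genes below DMSO (32% of all tested genes) and 1 above (38%), and for 4 below siCtrl (38%) and 4 above (35.3%). Because the family was chosen from these contrasts, nothing is read from these counts.

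The number of passing genes on the deposited scale rests on single arrays. Without DMSO replicate 2 only KLF9 passed with THZ1, without THZ1 replicate 1 KLF2 no longer did, and without either DMSO replicate 1 or THZ1 replicate 2 KLF10 no longer did. Without siCtrl replicate 2 only KLF6, KLF9 and KLF11 passed with siMITF. The count over all genes behind these shares moved too: with siMITF it was 7607, 1771 without siCtrl replicate 2 and 1850 without siMITF replicate 2. With THZ1 it was 1208, and leaving out DMSO replicate 2 gave 250. Leaving out THZ1 replicate 1 gave 368 and leaving out THZ1 replicate 2 gave 2102. On that scale every gene carried the same SE of 0.25, and with each gene's own variance 0 of the 9 and 0 of all genes passed in either comparison. At an unadjusted p under 0.05 that test called 1444 genes with THZ1 and 5706 with siMITF.

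**Figure D3:**
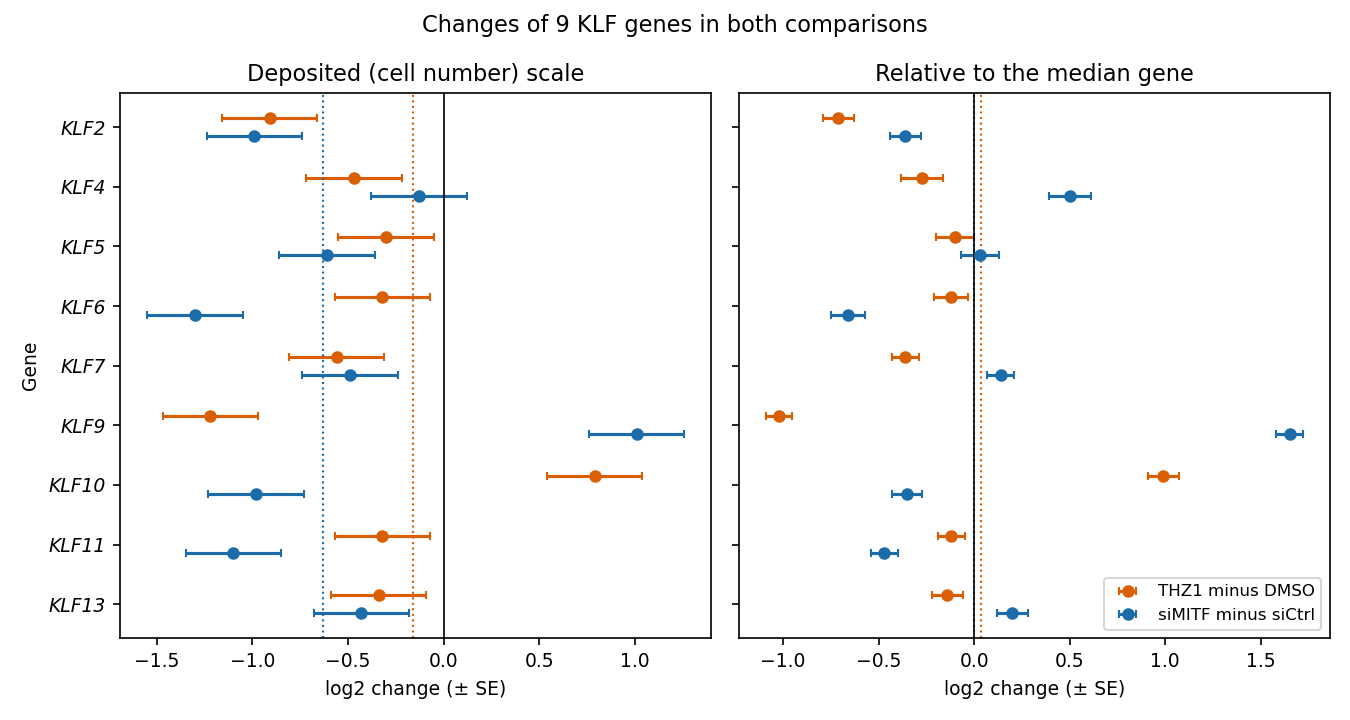
Log2 change of the 9 genes, by brightest probe set, with THZ1 against DMSO and with siMITF against siCtrl, on the deposited scale (left) and the relative scale (right); bars show 1 SE and dotted lines the median of all 11946 tested genes, at -0.16 with THZ1 and -0.63 with siMITF on the deposited scale and near 0 on the relative scale. KLF9 and KLF10 lie on opposite sides of 0 in both panels.

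The median change of the 9 genes was -0.34 with THZ1 and -0.61 with siMITF as deposited, and -0.14 and 0.03 on the relative scale. Over all tested genes the relative medians were 0.037 and 0.001. In the difference of the changes on the deposited scale, which reuses the arrays of both comparisons, KLF9 lay past the limma threshold as lower and KLF6 and KLF10 as higher, against 0.946% and 9.84% of all genes. Centred, 5 were lower (KLF2, KLF4, KLF7, KLF9 and KLF13) and 3 higher (KLF6, KLF10 and KLF11), against 20.2% and 21.4%. These calls use the values that the family was chosen from, and nothing is read from them either. For KLF2 that difference, -0.36 (SE 0.11), was 0.04 when the gene's probe sets were averaged.

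The genes most like KLF9 across the 8 arrays on the relative scale were the collagen gene COL4A1, the fatty acid receptor gene PPARA and the ubiquitin ligase gene RNF146, each with Pearson r = 0.987. All 3 were lower with THZ1 (-0.38, -0.39 and -0.39) and higher with siMITF (0.91, 0.63 and 0.48), with smaller changes than KLF9. KLF10 was most like NDUFB10 of respiratory complex I (r = 0.997), the calcium-binding protein gene S100A11 (0.996) and the kinase gene NEK7 (0.996). NEK7 changed by 0.77 with THZ1 and -0.30 with siMITF, and the other two by 0.41 and 0.28 and by -0.13 and -0.10. For KLF2 they were the cap methyltransferase gene CMTR2 (0.989), the lipid-binding protein gene OSBPL11 (0.988) and YDJC (0.985), all lower under both treatments. Genes with r over 0.95 numbered 262 for KLF10, 58 for KLF2 and 27 for KLF9. The 8 points come from 4 groups and share their group means, so a high r says mainly that the group means fall in the same order.

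The rest of the family and its partners were not used to choose the 9 and were tested on the relative scale with limma, adjusted over all 11946 genes. Their lists were written with earlier results of these data known, so they are not an independent set. Of all tested genes, 21.1% passed as lower and 17.7% as higher with THZ1, and 24.7% and 19.5% with siMITF. The counts of each list below stand beside these shares, and nothing is read from the count of a single list. Of 9 other KLF genes, 4 were tested, and 2 fell with THZ1 while the other two did not pass. With siMITF 2 fell and 1 rose. KLF3, a repressor that recruits CtBP, read 203 and 261 with DMSO and 83.4 and 116 with THZ1, a fall of 1.87-fold (log2 -0.91, SE 0.10, adjusted p = 8.28e-05). KLF15, a metabolic regulator of liver and muscle, read 137 and 149 with DMSO and 46.7 and 64.6 with THZ1, a fall of 1.94-fold (log2 -0.96, SE 0.09, adjusted p = 3.13e-05). For both genes the THZ1 arrays lay below DMSO with a wide gap. Both also fell with siMITF, KLF3 by 0.34 (adjusted p = 0.0156) and KLF15 by 0.30 (adjusted p = 0.018).

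KLF15 has 1 probe set. The other 2 KLF3 probe sets above the minimum signal gave 0.06 and 0.14 with THZ1. The fall of KLF3 thus rests on 1 probe set, whose name ends in _s_at. KLF12, also a CtBP-binding repressor, rose with siMITF by 0.28 (adjusted p = 0.0496), near the threshold. Its deposited signals were 82.2 and 104 with siCtrl and 72.8 and 65.2 with siMITF, so this rise is relative to the median gene. KLF16 passed in neither comparison (-0.04 and 0.05).

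Of 9 SP genes 6 were tested. With THZ1, SP4 fell by 1.17 (adjusted p = 0.000553), SP1 by 0.66 (adjusted p = 0.000199) and SP2 by 0.36 (adjusted p = 0.0397). SP1, the ubiquitous GC-box activator, read 244 and 299 with DMSO and 115 and 174 with THZ1, yet its other probe sets gave -0.34 and 0.27. SP4, known from the brain, read 202 and 205 with DMSO and 54.8 and 86.5 with THZ1, and its other probe sets were below the minimum signal and gave 0.19 and 0.04. SP9 passed as higher (0.20, adjusted p = 0.0393), although its deposited change was 0.00.

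With siMITF, SP3 fell by 0.65 (adjusted p = 0.000403), from 168 and 215 with siCtrl to 70.8 and 66.2, and SP1 was 0.24 above the median gene's change (adjusted p = 0.0379). The other 5 SP3 probe sets ranged from -0.56 to 0.27. SP8 passed in neither comparison.

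**Figure D4:**
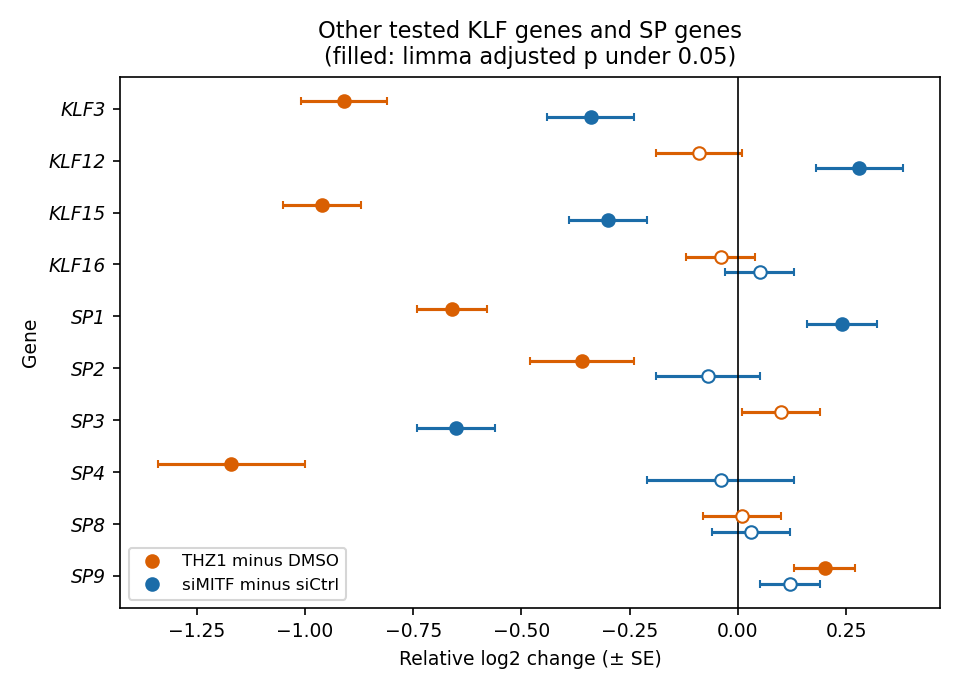
Relative log2 change, with 1 SE, of the 4 tested KLF genes outside the 9 and the 6 tested SP genes, with THZ1 against DMSO and with siMITF against siCtrl; filled points passed the limma threshold and open points did not. KLF3, KLF15, SP1 and SP4 lie at or below -0.66 with THZ1, and SP3 lies at -0.65 with siMITF.

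Among the corepressors that KLFs recruit, 2 of 10 fell and 2 rose in each comparison. CTBP2, the partner of KLF3, KLF8 and KLF12, read 489 and 601 with DMSO and 252 and 364 with THZ1, a fall of 0.61 (adjusted p = 0.000178), and its other 6 probe sets gave -0.40 to -0.86. With siMITF its change was 0.26 relative to the median gene (adjusted p = 0.0165). The histone-binding subunit gene RBBP7 fell with siMITF by 0.66 (adjusted p = 0.00038), and SIN3B passed as higher (0.50, adjusted p = 0.0015), although 1 of its other probe sets gave -0.33. Probe sets with a mean signal over 400, as for RBBP7, had a median relative change of -0.25 with siMITF.

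The ERK5 to MEF2 route, which drives KLF2 and KLF4 in endothelium, had 4 of 7 genes fall with THZ1 and 1 rise, and 2 fall and 1 rise with siMITF. The transcription factor MEF2C read 230 and 264 with DMSO and 117 and 149 with THZ1, a fall of 0.62 (adjusted p = 0.000301), and all its 4 probe sets were negative. The kinase MAP3K2 rose with THZ1 by 0.27 (adjusted p = 0.021) and fell with siMITF by 0.37 (adjusted p = 0.00391). Probe sets with a mean signal from 200 to 400, as for MAP3K2, had a median of -0.21 with siMITF. MAP2K5, the kinase of ERK5, passed as higher with siMITF (0.50, adjusted p = 0.00133) with no passing change as deposited (-0.13).

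The TGF-beta route, the classical inducer of KLF10 and KLF11, had 10 of 12 genes tested. With THZ1 1 fell and 1 rose, and with siMITF 1 fell and 5 rose. The fall with THZ1 was in SMAD3, which carries the receptor signal to the nucleus. It read 208 and 262 with DMSO and 97.9 and 139 with THZ1, a fall of 0.71 (adjusted p = 3.9e-05). With siMITF the ligand gene TGFB3 rose by 0.77 (adjusted p = 0.00186), the SMAD inhibitor gene SKIL by 0.52 (adjusted p = 0.00664) and SMAD3 by 0.29 (adjusted p = 0.00629), all relative to the median gene. The last 3 had no passing change as deposited (0.14, -0.11 and -0.34). TGFB3 and SKIL were dim, with signals of 59 or less, and probe sets between 39.2 and 60 had a median relative change of 0.21 with siMITF. As deposited, TGFB3 read 36.1 and 50.8 with siCtrl and 56.6 and 42.1 with siMITF, so that these groups overlapped.

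Of 9 genes around the nuclear receptors that induce KLF9, 8 were tested, and 4 fell with THZ1 while the other 4 did not pass, and with siMITF 2 fell and 4 rose. The retinoid X receptor RXRA fell with THZ1 by 0.45 (adjusted p = 0.00213) and rose with siMITF by 0.26 (adjusted p = 0.0286), both relative to the median gene, and its second probe set gave -0.06 and -0.33. PER1, a clock gene induced by glucocorticoids, rose with siMITF by 0.61 (adjusted p = 0.000834), and the thyroid hormone receptor THRB by 0.46 (adjusted p = 0.00338). Both were dim, with signals of 64.3 or less, and their deposited changes of -0.02 and -0.18 did not pass. The 2 that fell with siMITF were FKBP5 (-0.38, adjusted p = 0.00579) and DUSP1 (-0.32, adjusted p = 0.01). As deposited these also passed as lower, at -1.01 and -0.95. Other FKBP5 probe sets above the minimum signal gave -0.02, and those of DUSP1 ranged from -0.35 to 0.

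Of 5 ubiquitin ligase genes for KLFs, 1 fell with THZ1, and 2 fell and 1 rose with siMITF. WWP1, which targets KLF2 and KLF5, fell in both (by 0.25, adjusted p = 0.0313, and by 0.43, adjusted p = 0.00206), and its other probe sets gave -0.09 and -0.06 with THZ1 and 0.29 and -0.13 with siMITF. FBXO32 fell with siMITF by 0.62 (adjusted p = 0.00032), from 749 and 947 to 408 and 291. The median relative change with siMITF was -0.25 for probe sets over 400, as for FBXO32, and -0.21 from 200 to 400, as for WWP1. FBXW7 passed as higher with siMITF (0.40, adjusted p = 0.016), but not as deposited (-0.23).

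Of 8 reported KLF target genes, 5 were tested, with 3 lower with THZ1 and 2 higher with siMITF. CDKN1B, the cell cycle inhibitor p27, read 431 and 527 with DMSO and 165 and 245 with THZ1, a fall of 0.98 (adjusted p = 1.18e-05). CDKN1A, the inhibitor p21, fell with THZ1 by 0.46 (adjusted p = 0.00109) and rose with siMITF by 0.53 (adjusted p = 0.000461), and its second probe set gave -0.36 and 0.44. As deposited the siMITF change of CDKN1A was -0.11 and did not pass. TXNIP, the thioredoxin inhibitor, read 161 and 187 with siCtrl and 289 and 227 with siMITF, a rise of 1.15 (adjusted p = 1.08e-05), with its other probe sets between 0.96 and 1.31. With THZ1 TXNIP gave 0.02. As deposited its rise of 0.52 did not pass (adjusted p = 0.0528).

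Over the 8 lists together, 55 of 69 genes were tested, and 20 fell and 5 rose with THZ1 while 12 fell and 17 rose with siMITF. The shares of all tested genes were 21.1% lower and 17.7% higher with THZ1, and 24.7% and 19.5% with siMITF. On the deposited scale 8 of the 55 fell with THZ1 and 32 fell with siMITF, and 0 passed as higher in either, so the 17 rises with siMITF are relative to the median gene. The shares of all tested genes on that scale were 10% lower and 0.0753% higher with THZ1, and 63.4% lower and 0.326% higher with siMITF.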

How the data were processed

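Values were the deposited array signals (intensity, linear) of 8 arrays. MAS5 made the probe set signals, per the submitters' processing notes. Per the series' design text, signals were normalized to cell number, and per the labels' protocols ERCC RNA was spiked in by cell number and 100 ng of RNA was used per array. How the normalization was calculated is not given in the sources used here.

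Of 49495 probe sets, 45284 carried 1 gene symbol in the platform annotation and 1333 several, and only the former were used. Signals were analysed as log2(signal + 16). The brightest probe set stood for a gene, which was tested if that probe set's mean was at or above the 40th percentile (signal 39.2). Tests used limma 3.58.1 (R 4.3.3), fitted over all 8 arrays with eBayes, and called genes at p under 0.05 after Benjamini-Hochberg adjustment over 11946 genes. On the deposited scale the prior degrees of freedom were infinite, so every gene had an SE of 0.25 and small p-values overstate the evidence. On the relative scale they were 5.97 beside 4 residual ones, with a median SE of 0.084. With 2 arrays against 2, an exact permutation test cannot go below p = 0.333. Precision is limited by the number of arrays.

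The 9 genes, the 8 gene lists and the marker lists were chosen with earlier results of these data known. Named genes were all probe sets of the 9, every tested KLF and SP gene, up to 3 passing genes per other list by largest relative change, MITF, and the 3 genes most correlated with each of KLF2, KLF9 and KLF10. FKBP5 and DUSP1 were named in addition, as the falls with siMITF in the nuclear receptor list. The fit was tested on simulated data. Alternatives were pseudocounts of 1 and 64, no filter, averaged probe sets, quantile normalization, each gene's own variance, only the arrays of a comparison, a replicate block and leaving out each array. Promoters are RefSeq sequence (GRCh38.p14), and no protein sequence or KLF10 promoter was used here.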

Additional observations from a re-analysis of the deposited data

Results flagged for a closer look

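For 21 of the named genes outside the 9, the change with THZ1 differed from that with siMITF by a limma test of the difference itself on the relative scale. In all, 30 of the 55 tested list genes passed that test (23 lower and 7 higher), as did 4965 of all 11946 genes. On the deposited scale 4 of the 21 passed (SP3, RBBP7, MAP3K2 and FBXO32, all higher), and none of the negative differences given here did. The values are THZ1 change minus siMITF change. In the family, the difference was -0.56 for KLF3 (adjusted p = 0.00798), -0.66 for KLF15 (0.00212), -0.89 for SP1 (0.000295), 0.76 for SP3 (0.00125) and -1.13 for SP4 (0.00416). MITF gave 0.45 (0.0218).

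Among partners and targets the difference was positive for RBBP7 at 0.97 (0.000355), FBXO32 at 0.70 (0.00112) and MAP3K2 at 0.63 (0.00137), which were lower with siMITF. Probe sets with a mean signal over 400 had median relative changes of 0.17 with THZ1 and -0.25 with siMITF, and those from 200 to 400 of 0 and -0.21. The part of signal level in these positive differences was not tested. For other genes the sign was the opposite. The difference was negative for CTBP2 at -0.87 (0.000211), SIN3B at -0.64 (0.00256), MEF2C at -0.63 (0.00193), MAP2K5 at -0.42 (0.0184), TGFB3 at -0.78 (0.0104), SMAD3 at -1 (6.03e-05) and SKIL at -0.47 (0.0483). The same held for PER1 at -0.74 (0.00204), RXRA at -0.71 (0.00105), TXNIP at -1.14 (5.42e-05), CDKN1B at -1.13 (5.55e-05) and CDKN1A at -0.99 (0.000121).

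For members of the 9 whose arrays moved in opposite directions in the comparisons, the difference counts as not tested, because the fit's calls for them rest on the values they were chosen from. KLF9 gave -2.23 as deposited and -2.67 on the relative scale, and KLF10 gave 1.78 and 1.35. On the relative scale alone KLF4 gave -0.77, KLF7 -0.51 and KLF13 -0.34.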

How the results depend on the processing

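KLF9 and KLF10 kept their direction in both comparisons on both scales under every alternative. On the relative scale KLF9 ranged from -1.07 to -0.49 with THZ1 and from 1.23 to 1.95 with siMITF, and KLF10 from 0.91 to 1.07 and from -0.53 to -0.16. KLF2 with averaged probe sets turned the difference of its changes to 0.04. Quantile normalization of the deposited signals gave 5 passing members with THZ1 (3 otherwise) and 6 in the difference (3 otherwise). It takes out the shift between arrays, so these counts no longer refer to the deposited scale. Each gene's own variance gave 0 members as deposited with THZ1, with siMITF (6 otherwise) and in the difference, with lowest adjusted p of 0.268, 0.0893 and 0.357 and 1444, 5706 and 1508 genes at an unadjusted p under 0.05. In the relative difference (8 members) no filter gave 5, averaged probe sets 4 and own variance 4. Of the 25 list genes passing with THZ1, 8 passed as deposited. Leaving out arrays gave 1 to 3 members with THZ1 and 3 to 7 with siMITF as deposited, 2 to 4 and 5 to 8 in the deposited and relative differences, and 18 to 29 list genes with siMITF. The relative difference fell to 5 without DMSO replicate 2, siCtrl replicate 1 or siMITF replicate 2, and the list count to 18 without siMITF replicate 2. The cause of these moves was not tested.

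Same-numbered arrays correlated at r = 0.11 (DMSO with THZ1) and -0.18 (siCtrl with siMITF), so the numbers were not taken as pairs. With the replicate block, 3 and 5 members passed with THZ1 on the deposited and relative scales, 7 and 6 with siMITF, 3 and 8 in the difference, and 22 and 28 list genes. A crossed pairing of the siRNA arrays, added after seeing the data, gave 8 and 6 members with siMITF and 6 and 8 in the difference. Over all genes as deposited, leaving out arrays gave 250 to 2102 calls with THZ1 (1208 otherwise), 1771 to 8551 with siMITF (7607) and 82 to 3923 in the difference (1288). That last count was 82 without siCtrl replicate 2 or siMITF replicate 2, and leaving out DMSO replicate 1 gave 98. Leaving out THZ1 replicate 2 gave 245, and leaving out THZ1 replicate 1 gave 3923. Signals below 39.2 limit what 5 of the 27 probe sets can show.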
